A study of Mus musculus with 6 samples.

Results

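The genes described here are 10 metalloprotease genes: 9 members of the ADAMTS family (Adamts1, Adamts2, Adamts4, Adamts5, Adamts9, Adamts10, Adamts12, Adamts13 and Adamts15) and Adam8. They were picked by gene symbol from a table of 26890 genes, and all 10 were found there. Their RNA was counted by 5′-end sequencing in cells of mouse lung, in 3 libraries from C1q-treated mice and 3 from saline-treated mice. All mice were wild-type C57BL/6. The C1q group had received C1q, the recognition molecule of the classical complement pathway, into the trachea at 20 µg per mouse, and the saline group carries the treatment label Saline. Lungs of both groups were taken on day 3, digested with Liberase and DNase, and separated on Percoll, of which the middle layer was kept. The labels give neither age nor sex and do not say whether each library is a separate animal, so the p-values below measure the spread between these libraries, which may be partly technical.

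ADAMTS proteases are secreted zinc metalloproteases whose protease domain is followed by thrombospondin repeats that hold the enzyme on matrix or cell surfaces. They differ by what they cut: procollagen ends, the large proteoglycans that bind hyaluronan, microfibril-associated proteins, or von Willebrand factor. Adam8 belongs to the related ADAM family, which is anchored in the cell membrane and sheds proteins from cell surfaces, and it is known from myeloid leukocytes. In lung, these enzymes are studied in matrix turnover and leukocyte entry.

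After C1q, 4 of the 10 genes had all 3 libraries above all 3 saline libraries: Adamts2, Adamts4, Adamts12 and Adam8. Adamts13 had all C1q libraries below all saline libraries. In the other 5, Adamts1, Adamts5, Adamts9, Adamts10 and Adamts15, the groups overlapped. None of the 10 passed the test over all genes: by edgeR's quasi-likelihood test, 0 had a Benjamini-Hochberg adjusted p under 0.05, while 4 were higher and 1 lower at an unadjusted p under 0.05. DESeq2 called 1 of the 10, Adamts4, where it called 0.23% of all genes higher, and limma-voom called 0.

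These counts stand beside the whole table. Of 13473 genes tested, 0.0297% were called higher and 0% lower by edgeR. All C1q libraries lay above saline for 8.12% of genes and below for 5.96%, and 4.22% were higher and 3.94% lower at an unadjusted p under 0.05. The median log2 fold change was 0.33 over the 10 genes and -0.01 over all genes tested. The 10 were chosen with earlier results of these data known, so their share is a description and no test of the family. All 10 passed the filter on low counts, 9 of them in every library and Adamts12 in 3 C1q and 2 saline libraries.

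**Figure D1:**
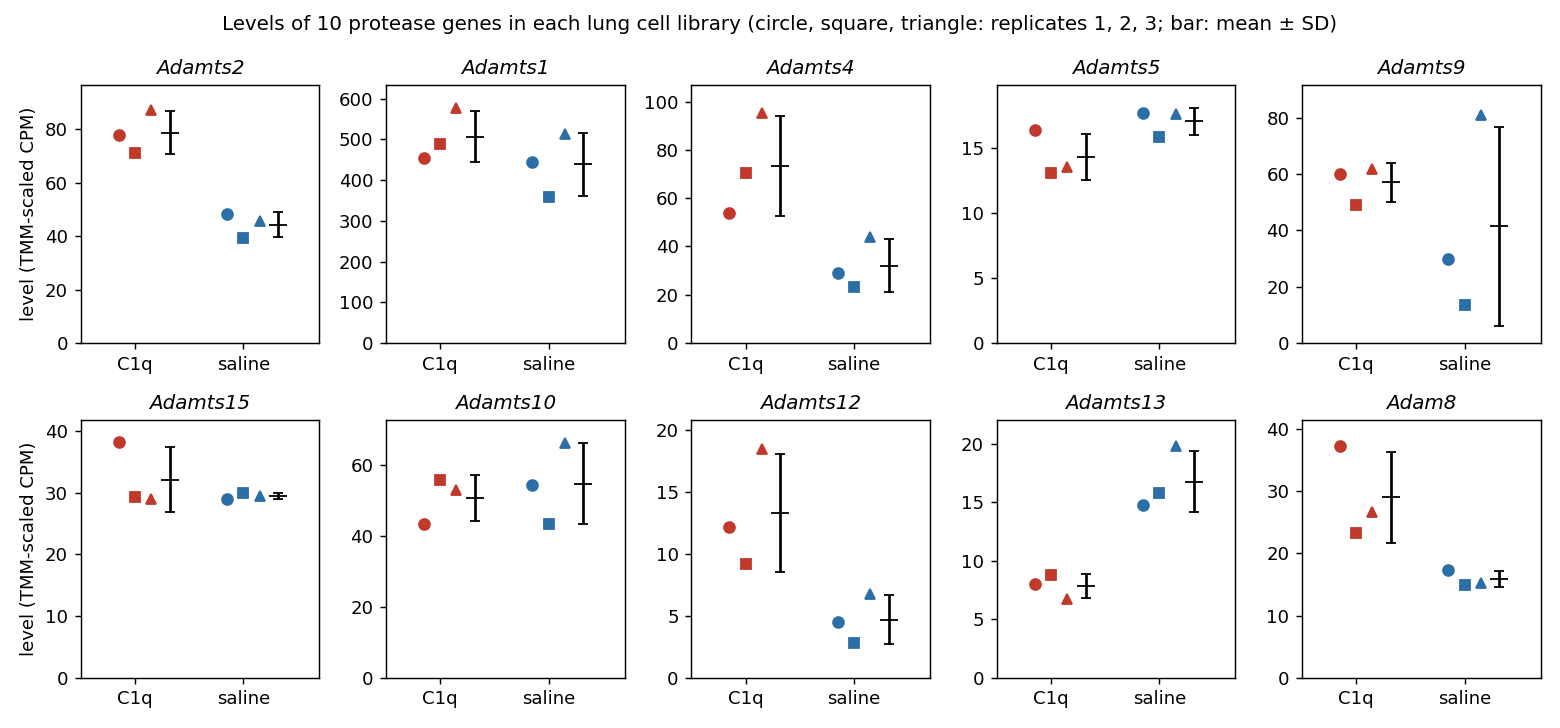
Level of each of the 10 genes (y axis, CPM scaled by TMM, from 0) in the 3 C1q libraries (red, left) and the 3 saline libraries (blue, right) of each panel, with the mean and SD as a black bar. The groups are apart for Adamts2, Adamts4, Adamts12, Adamts13 and Adam8 and overlap for the other 5 genes.

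Adamts2 removes the amino-terminal propeptide of fibrillar procollagens, a step that lets collagen assemble into fibrils. Its level, as counts brought to a common library size by TMM scaling (CPM), was 78.0, 71.2 and 87.1 in C1q replicates 1 to 3, against 48.2, 39.3 and 45.6 in saline replicates 1 to 3. The lowest C1q library thus stood well above the highest saline library, and both groups were tight. The means were 78.8 ± 7.97 CPM in C1q and 44.4 ± 4.60 CPM in saline (SD, n = 3 each). This gave a log2 fold change of 0.82 ± 0.16 (SE) with an edgeR adjusted p of 0.231. With 1 library left out it stayed between 0.75 and 0.89.

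The other N-proteinase that could be tested went the opposite way in its values. Adamts14 stood at 3.32, 2.47 and 3.16 CPM in C1q replicates 1 to 3 and at 7.72, 7.69 and 8.22 CPM in saline replicates 1 to 3. Its log2 fold change was -1.38 ± 0.35 (SE; edgeR adjusted p = 0.405). It passed the filter on low counts through its saline libraries only, and a gene kept in this way had to differ between the groups. Adamts3, the other enzyme of this kind, averaged 2.08 CPM in C1q and 2.93 CPM in saline and was too low to test. The procollagens that these enzymes cut had higher values: 5 of 6 listed genes were tested, and in all 5 every C1q library lay above every saline library. Their median log2 fold change was 0.86, with 0 calls by edgeR. Col3a1 was at 808 ± 214 CPM in C1q and 329 ± 102 CPM in saline, Col1a1 at 328 ± 62.2 CPM in C1q and 165 ± 38.2 CPM in saline, and Col1a2 at 436 CPM in C1q and 241 CPM in saline. At an unadjusted p under 0.05 all 5 were higher, and DESeq2 called Col1a1, Col1a2 and Col3a1.

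The next group cuts aggrecan, versican and related proteoglycans. Adamts4, one of the main aggrecanases, was at 53.9, 70.5 and 95.2 CPM in C1q replicates 1 to 3, against 28.9, 23.1 and 44.1 CPM in saline replicates 1 to 3. Both groups were spread widely, and C1q replicate 1 and saline replicate 3 came closest to each other. The log2 fold change was 1.18 ± 0.26 (SE), with means of 73.2 ± 20.8 CPM in C1q and 32.0 ± 10.8 CPM in saline (SD, n = 3 each) and an edgeR adjusted p of 0.293. DESeq2 gave an adjusted p of 0.0235, and edgeR without saline replicate 3 gave 0.0476. Over all alternatives it ran from 5.91e-07 to 0.854.

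Adamts1, an aggrecan- and versican-cleaving protease that is also known to restrain angiogenesis, overlapped between the groups. It stood at 455, 489 and 576 CPM in C1q replicates 1 to 3 and at 445, 359 and 514 CPM in saline replicates 1 to 3. The log2 fold change was 0.21 ± 0.17 (SE), and its unadjusted 95% interval ran from -0.18 to 0.59. It was 0.087 without saline replicate 2 and 0.33 without saline replicate 3. Adamts5, the other main aggrecanase of mouse cartilage, lies 53.1 kb from Adamts1 on chromosome 16 and on the same strand. It was at 16.3, 13.1 and 13.5 CPM in C1q replicates 1 to 3 and at 17.7, 15.8 and 17.6 CPM in saline replicates 1 to 3, with C1q replicate 1 inside the saline range. Its log2 fold change of -0.24 had an interval of -0.72 to 0.23. These neighbours thus had estimates of opposite sign, and neither was called (edgeR adjusted p = 0.749 for Adamts1 and 0.755 for Adamts5).

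Adamts9, a protease that cuts versican and aggrecan, was the least certain of the 10. It was at 60.0, 49.0 and 61.8 CPM in C1q replicates 1 to 3, against 29.9, 13.4 and 81.1 CPM in saline replicates 1 to 3. The C1q libraries were close together, while the saline libraries held both the lowest and the highest of the 6 values. In the fit this gave a log2 fold change of 0.46 ± 0.46 (SE), with an interval of -0.55 to 1.46 and an edgeR adjusted p of 0.787. It was 0.057 without saline replicate 2 and 1.37 without saline replicate 3.

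Adamts15, another protease of versican and aggrecan, was at 38.2, 29.3 and 28.9 CPM in C1q replicates 1 to 3 and at 28.9, 30.0 and 29.5 CPM in saline replicates 1 to 3. C1q replicate 1 stood apart from the other 5 libraries, which were nearly equal. The log2 fold change of 0.13 had an interval of -0.26 to 0.52 and was -0.017 without C1q replicate 1. Its neighbour Adamts8, which starts 20.1 kb away on chromosome 9 on the opposite strand, also encodes an aggrecan-cleaving protease. Adamts8 averaged 29.0 ± 6.04 CPM in C1q and 19.0 ± 2.78 CPM in saline (SD, n = 3 each), with the C1q libraries all above the saline libraries. Its log2 fold change was 0.61 ± 0.22 (SE; edgeR adjusted p = 0.566).

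Among 9 listed proteoglycan substrates and cofactors, 6 were tested, all 6 with estimates above 0 and a median of 0.56 on the log2 scale, and edgeR called 0, with 3 higher at an unadjusted p under 0.05. Versican (Vcan), the proteoglycan substrate shared by several of these enzymes, was uneven in the treated group, at 34.6, 10.2 and 28.0 CPM in C1q replicates 1 to 3 and 12.2, 8.91 and 17.2 CPM in saline replicates 1 to 3. C1q replicate 2 lay within the saline range. Bgn, which encodes the small proteoglycan biglycan, averaged 1000.2 ± 69.6 CPM in C1q and 615 ± 42.8 CPM in saline, and DESeq2 called it. Fbln1, which encodes fibulin-1, a cofactor of Adamts1, averaged 115.6 ± 20.1 CPM in C1q and 78.0 ± 7.74 CPM in saline.

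**Figure D2:**
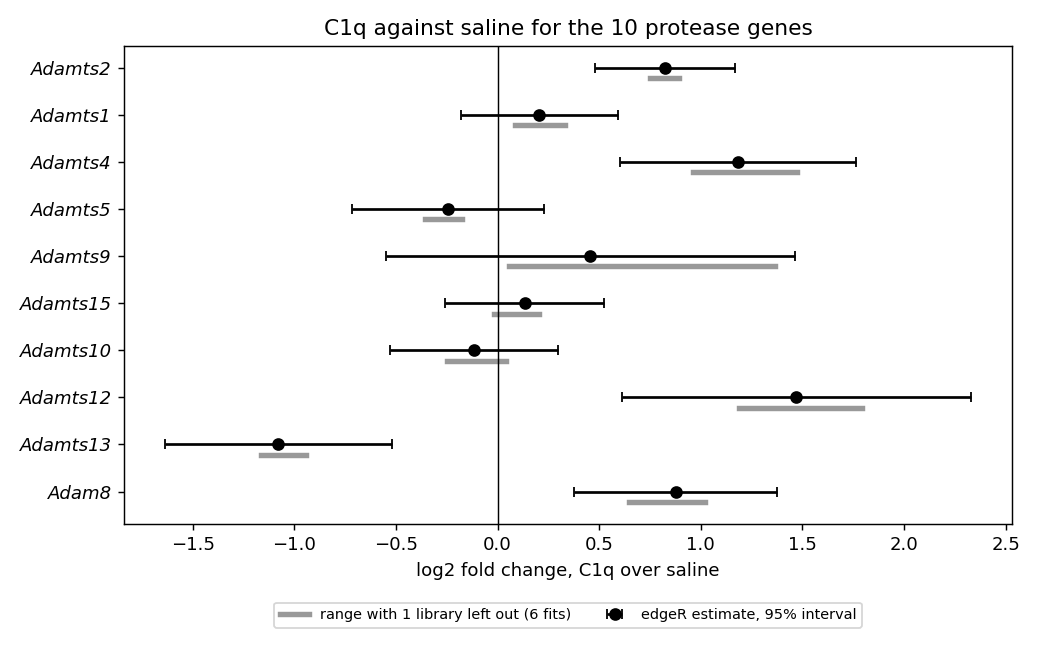
Log2 fold change of each of the 10 genes, C1q over saline (x axis), with the edgeR estimate and its unadjusted 95% interval in black and the range over the 6 fits that each leave out 1 library in grey. The intervals of Adamts2, Adamts4, Adamts12 and Adam8 lie above 0 and that of Adamts13 below 0, and Adamts9 has the widest leave-out range, 0.057 to 1.37.

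Adamts12, which cuts cartilage oligomeric matrix protein, had the highest estimate of the 10 at low counts. It was at 12.2, 9.17 and 18.5 CPM in C1q replicates 1 to 3, against 4.50, 2.83 and 6.72 CPM in saline replicates 1 to 3. These levels rest on 44, 26 and 41 counts in C1q and on 14, 7 and 18 counts in saline. The groups did not overlap, but the C1q libraries were spread widely. The fitted log2 fold change was 1.47 ± 0.39 (SE), the interval ran from 0.61 to 2.33 and the edgeR adjusted p was 0.41.

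Adamts10, which binds fibrillin microfibrils, was at 43.1, 55.7 and 52.8 CPM in C1q replicates 1 to 3 and at 54.3, 43.3 and 66.1 CPM in saline replicates 1 to 3. The saline range covered the C1q values except replicate 1, which lay just under it. Its log2 fold change was -0.12 ± 0.19 (SE), with an interval of -0.53 to 0.30, and was 0.040 without saline replicate 3. Adamts17, another member of the family that is linked to fibrillin, was at 17.4, 13.4 and 12.2 CPM in C1q replicates 1 to 3. These values lay above the 8.68, 6.88 and 8.59 CPM of saline replicates 1 to 3. The log2 fold change of Adamts17 was 0.84 ± 0.27 (SE; edgeR adjusted p = 0.53). Adamts6 overlapped between the groups, with a log2 fold change of 0.01 ± 0.51 (SE). Fbn1, which encodes fibrillin-1, the main microfibril protein, averaged 181.8 ± 26.1 CPM in C1q and 118.6 ± 12.6 CPM in saline, with a log2 fold change of 0.61 ± 0.16 (SE; edgeR adjusted p = 0.41).

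ADAMTS-like proteins share the thrombospondin repeats but have no protease domain. Of 7 listed, 6 were tested, 5 had estimates above 0, their median was 0.20 on the log2 scale, and edgeR called 0, with 1 higher at an unadjusted p under 0.05. That gene, Adamtsl2, which encodes a microfibril-associated glycoprotein, was at 52.8, 54.3 and 61.8 CPM in C1q replicates 1 to 3 and at 33.1, 40.1 and 31.0 CPM in saline replicates 1 to 3. All its C1q libraries lay above saline, and the log2 fold change was 0.70 ± 0.16 (SE; edgeR adjusted p = 0.345). Adamtsl5 had a log2 fold change of -0.39 ± 0.23 (SE) and Adamtsl1 of 0.33 ± 0.26 (SE), with overlapping groups in both.

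Adamts13 cuts von Willebrand factor and so limits the size of its platelet-binding multimers. It was the only gene of the 10 with lower values in every C1q library, at 8.02, 8.82 and 6.77 CPM in C1q replicates 1 to 3, against 14.8, 15.8 and 19.8 CPM in saline replicates 1 to 3. The counts behind these levels were 29, 25 and 15 in C1q and 46, 39 and 53 in saline. The lowest saline library was above the highest C1q library by more than the range within the C1q group. The means were 7.87 ± 1.03 CPM in C1q and 16.8 ± 2.65 CPM in saline (SD, n = 3 each), the log2 fold change was -1.08 ± 0.25 (SE), and the edgeR adjusted p was 0.345. With 1 library left out, it lay between -1.16 and -0.94. Vwf, the gene of its substrate, averaged 180.2 ± 19.0 CPM in C1q and 169.8 ± 6.97 CPM in saline, a log2 fold change of 0.09 ± 0.15 (SE).

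Adam8 was at 37.3, 23.3 and 26.6 CPM in C1q replicates 1 to 3, against 17.4, 15.0 and 15.3 CPM in saline replicates 1 to 3. The saline libraries were nearly equal, and C1q replicate 1 was the highest of the 6. In the fit the log2 fold change was 0.88 ± 0.23 (SE), with an interval of 0.38 to 1.38 and an edgeR adjusted p of 0.41, and was 0.64 without C1q replicate 1. Of 7 tested genes among the other membrane ADAM proteases, which include the sheddases Adam10 and Adam17, all overlapped between the groups and edgeR called 0, with 0 at an unadjusted p under 0.05 and a median log2 fold change of -0.02. Adam17, which releases tumour necrosis factor, averaged 61.4 ± 9.58 CPM in C1q and 54.5 ± 10.9 CPM in saline. Adam9 averaged 166.5 ± 12.4 CPM in C1q and 146.7 ± 17.7 CPM in saline, and Adam28 had a log2 fold change of -0.47 ± 0.37 (SE). Among Adam8 substrates, Selplg, the P-selectin ligand of leukocytes, was at 71.8 ± 9.93 CPM in C1q and 53.6 ± 6.92 CPM in saline, with all C1q libraries above saline and a log2 fold change of 0.42 ± 0.17 (SE; edgeR adjusted p = 0.602). Fcer2a, the low-affinity IgE receptor, had a log2 fold change of -0.11 ± 0.29 (SE).

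Of the genes that restrain or clear these enzymes, Timp1 rose after C1q, and it was the only gene called by edgeR among the 43 tested members of 9 related lists. Timp1, an inhibitor of metalloproteinases, was at 36.2, 34.9 and 36.1 CPM in C1q replicates 1 to 3 and at 11.3, 14.2 and 10.1 CPM in saline replicates 1 to 3. The log2 fold change was 1.60 ± 0.20 (SE; edgeR adjusted p = 0.0316). The call was lost without C1q replicate 1 (edgeR adjusted p = 0.297), C1q replicate 2 (0.109), C1q replicate 3 (0.0704) or saline replicate 1 (0.471). Timp3, the main tissue inhibitor of the aggrecanases, was at 863 ± 64.2 CPM in C1q and 934 ± 65.9 CPM in saline, with a log2 fold change of -0.11 ± 0.15 (SE). Timp4 had a log2 fold change of 0.25 ± 0.57 (SE) at a mean of 6.63 CPM in C1q and 5.61 CPM in saline. Reck, a membrane-anchored inhibitor, had a log2 fold change of -0.32 ± 0.18 (SE), and Lrp1, the endocytic receptor that clears several of these proteases, of 0.05 ± 0.16 (SE). All 4 proprotein convertases, which remove the prodomain of ADAMTS proteases, overlapped between the groups, with Furin at a log2 fold change of 0.09 ± 0.18 (SE), Pcsk5 at 0.10 ± 0.19 (SE) and Pcsk7 at -0.24 ± 0.19 (SE). Across the 9 lists, 59 genes were listed, and 14 were higher and 1 lower at an unadjusted p under 0.05. The lower one was Adamts14, whose difference the filter had fixed. DESeq2 called 5 of the listed genes higher, where it called 31 of all 13473 genes (0.23%), and limma-voom called 1, where it called 3 of all genes (0.0223%).

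**Figure D3:**
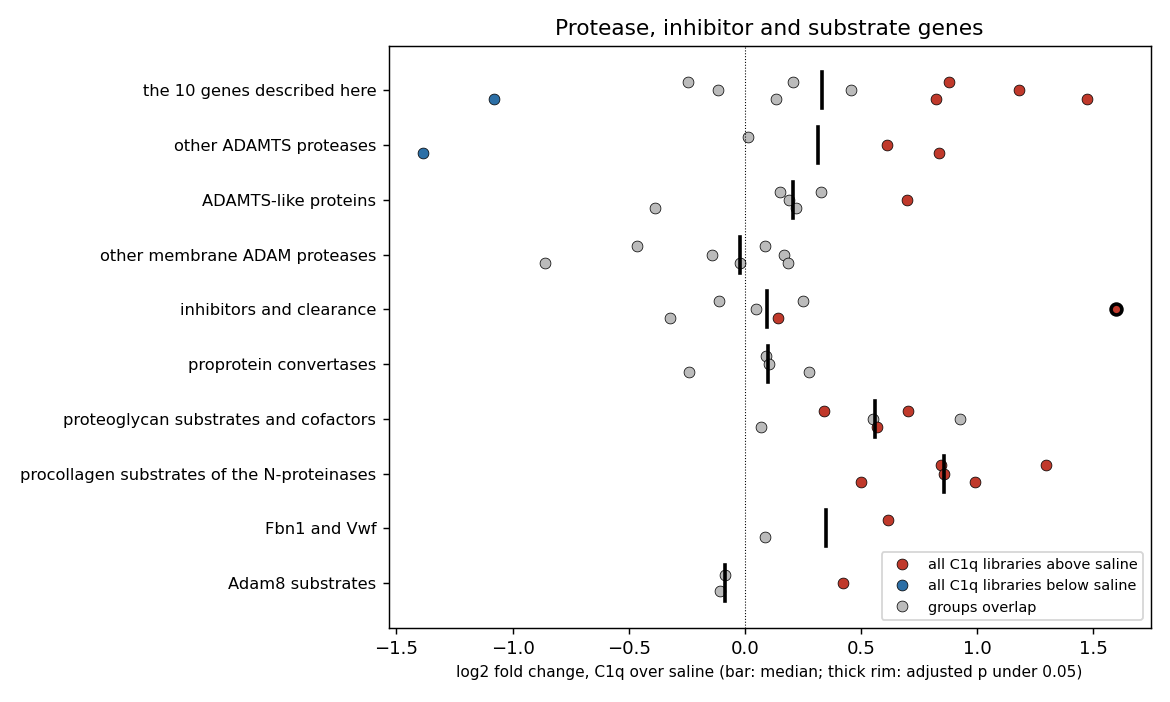
Log2 fold change of each tested gene, C1q over saline (x axis), for the 10 genes and 9 related lists (rows), with the list median as a bar. Red points have all C1q libraries above saline, blue points all below, and grey points overlap. The 5 procollagen genes are all red with a median of 0.86, and Timp1 at 1.60 alone has the thick rim of an adjusted p under 0.05.

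The stretches before the transcript starts are shown for the genes whose groups did not overlap, because 5′-end libraries read transcripts at their starts. The table of RefSeq promoters (GRCm38.p6) matched 6 of the 10 genes, 4 of which were among these. The 250 bases before the annotated start are given on the gene's own strand, 5′ to 3′, with capitals marking the matches to the searched motifs. They lie at chr11:50601835-50602084 on the plus strand for Adamts2, chr15:11064523-11064772 on the plus strand for Adamts12, chr7:139992563-139992812 on the minus strand for Adam8 and chr2:26973166-26973415 on the plus strand for Adamts13.
Adamts2: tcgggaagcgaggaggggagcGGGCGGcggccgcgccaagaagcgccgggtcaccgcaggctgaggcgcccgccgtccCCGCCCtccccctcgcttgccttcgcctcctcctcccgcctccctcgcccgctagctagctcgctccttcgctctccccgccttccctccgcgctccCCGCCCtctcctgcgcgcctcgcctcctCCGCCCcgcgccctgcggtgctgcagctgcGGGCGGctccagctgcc
Adamts12: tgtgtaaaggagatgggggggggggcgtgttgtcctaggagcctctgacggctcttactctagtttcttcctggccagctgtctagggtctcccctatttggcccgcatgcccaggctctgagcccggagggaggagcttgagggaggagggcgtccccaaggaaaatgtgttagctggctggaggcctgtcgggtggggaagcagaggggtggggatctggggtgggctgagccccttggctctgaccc
Adam8: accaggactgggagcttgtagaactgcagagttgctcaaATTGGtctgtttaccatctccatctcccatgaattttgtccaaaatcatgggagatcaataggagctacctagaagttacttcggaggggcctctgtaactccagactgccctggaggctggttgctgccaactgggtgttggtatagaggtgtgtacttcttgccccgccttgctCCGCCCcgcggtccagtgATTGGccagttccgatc
Adamts13: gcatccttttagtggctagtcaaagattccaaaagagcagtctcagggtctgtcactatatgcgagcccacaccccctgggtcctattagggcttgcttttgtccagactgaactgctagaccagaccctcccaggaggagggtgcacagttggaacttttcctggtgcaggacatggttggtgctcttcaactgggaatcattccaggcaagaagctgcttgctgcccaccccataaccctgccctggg

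The motifs, searched on both strands, were the TATA box (TATAAA), the GC box (GGGCGG), the CCAAT box (CCAAT) and the AP-1 site (TGANTCA), and no match shown overlaps another. The Adamts2 stretch held 5 GC boxes, and 78.0% of its bases were G or C, where the median of 32851 promoters was 52.4%. A GC box was found in 32.7% of those promoters. The Adam8 stretch held 1 GC box and 2 CCAAT boxes, the second of which 33.8% of promoters hold. The Adamts12 and Adamts13 stretches held none of the 4 motifs, and differed in G and C content, at 63.2% and 54.0%. Of the overlapping genes, Adamts1 held a TATA box, found in 12.4% of promoters, and 3 GC boxes, and Adamts9 held 1 GC box. An AP-1 site, present in 6.7% of promoters, was in 0 of the 6. Of the 3 genes with higher values after C1q and a window here, Adamts2 and Adam8 thus both held a GC box and Adamts12 did not.

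On GRCm38, all 10 genes are annotated as protein-coding. Adamts2 spans 50602084 to 50807573 on chromosome 11, Adamts4 spans 171250421 to 171260637 on chromosome 1, and Adamts12 spans 11064790 to 11349231 on chromosome 15. Adamts13 spans 26973416 to 27009628 on chromosome 2 and Adam8 139978932 to 139992562 on chromosome 7. The handling of strand was not given, so reads cannot be told apart where exons of genes on opposite strands overlap. Exons of Adam8 overlap those of Gm16201, and exons of Adamts9 those of A730049H05Rik and Gm15737, all on the opposite strand.

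Genes with the profile most like a member were sought over the 6 libraries among 12491 other genes with a mean of at least 5 CPM, by the root-mean-square distance of centred log2(CPM + 1) values. Nearest to Adamts2 were Csf2rb, a receptor subunit for several cytokines, at a distance of 0.084, Gyg, which encodes glycogenin, at 0.086, and the collagen gene Col1a2 at 0.090, where the median gene was at 0.48. Nearest to Adamts13 were A230072C01Rik at 0.065, the lung mesenchyme RNA Fendrr at 0.13 and Tcap, which encodes the sarcomere protein telethonin, at 0.13, where the median gene was at 0.58. Over 6 libraries in 2 groups such likeness largely follows the difference between the groups. Fendrr averaged 54.5 CPM in C1q and 97.8 CPM in saline, and Csf2rb 67.3 CPM in C1q and 39.9 CPM in saline.

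**Figure D4:**
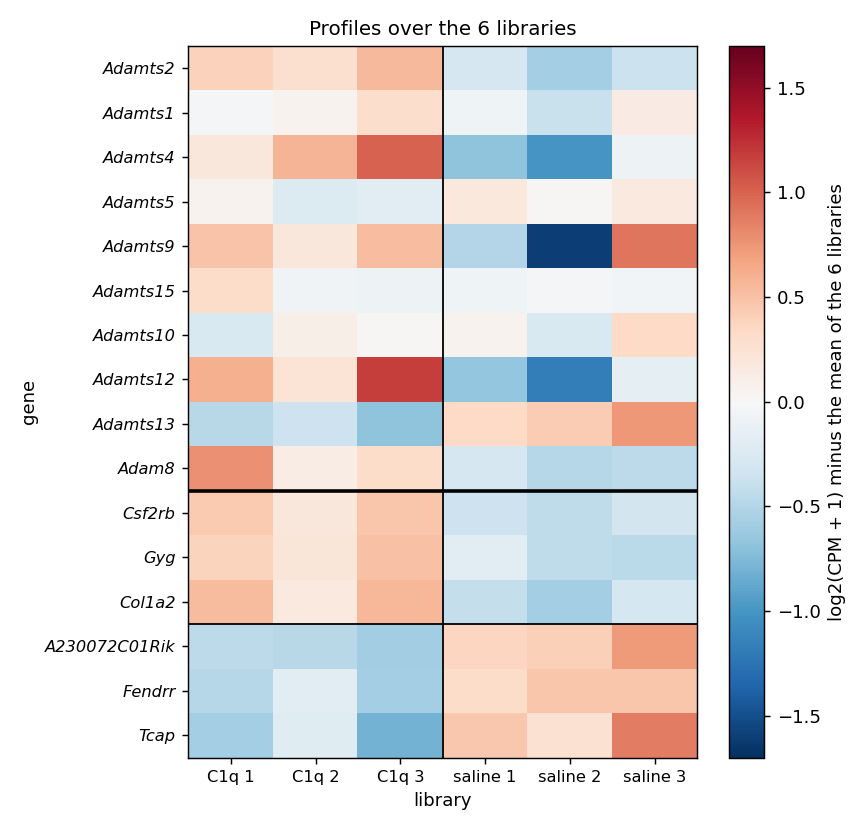
Level of each gene (rows) in each library (columns, C1q left and saline right) as log2(CPM + 1) minus its own mean over the 6 libraries, with red above and blue below that mean. The upper block holds the 10 genes, the middle block the 3 genes nearest to Adamts2 and the lower block the 3 nearest to Adamts13. Adamts9 reaches both its lowest and its highest value within the saline group.

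The libraries differed in ways that touch several of the 10 genes at once. Total counts ran from 2227619 to 3650793 in C1q and from 2577429 to 2991562 in saline, so that 3 counts correspond to 0.822 to 1.35 CPM. Within the saline group, replicate 3 was the highest library for 6 of the 10 genes and the lowest for 0, while replicate 2 was the lowest for 8. In the C1q group, replicate 3 was the highest for 5 genes and replicate 2 the lowest for 5.

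Markers of the cells that could carry these transcripts are given beside them, since in bulk samples more or fewer cells of a type and more or less RNA per cell cannot be told apart. The summed level of 10 fibroblast markers ran from 2879 to 2906 CPM in C1q and from 2168 to 2414 CPM in saline, with 9 of 10 members estimated above 0, 0 called by edgeR and a log2 ratio of the group means of 0.36. The general fibroblast marker Pdgfra averaged 269 CPM in C1q and 255 CPM in saline. Col1a2 and Dcn of this list are also in the substrate lists above, so the fibroblast sum is not separate from them. Col1a2 averaged 436 CPM in C1q and 241 CPM in saline. The summed level of 7 pericyte markers ran from 209.5 to 219.9 CPM in C1q and from 265 to 275 CPM in saline, with a log2 ratio of -0.32, while its members were mixed, 4 estimated below 0 and 3 above. Endothelial markers summed to 2765 to 3410 CPM in C1q and 3274 to 3747 CPM in saline, and smooth muscle markers to 611 to 768 CPM in C1q and 659 to 791 CPM in saline. All 8 endothelial markers were estimated below 0, with a median log2 fold change of -0.25, and 0 were called by edgeR. The fibroblast sum was thus higher beside Adamts2, Adamts4 and Adamts12, and the pericyte and endothelial lists were lower on balance beside Adamts13. The part of these lists in those values was not tested.

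For Adam8, the sums of the myeloid lists were mixed. Estimates were above 0 for 6 of 6 tested classical monocyte markers (median log2 fold change 0.57) and 5 of 6 neutrophil markers (median 0.20). The same held for 5 of 7 interstitial macrophage (median 0.68), 5 of 8 alveolar macrophage (median 0.06) and 1 of 2 eosinophil markers (median -0.07). In each of these lists 0 were called by edgeR. Neutrophil markers summed to 119.7, 92.8 and 68.2 CPM in C1q replicates 1 to 3 and to 56.3, 99.6 and 68.0 CPM in saline replicates 1 to 3. C1q replicate 1 had the highest Adam8 level and the highest neutrophil sum, but saline replicate 2, with the next highest sum, had the lowest Adam8 level of the 6 libraries. Eosinophil markers summed to 27.1 to 35.3 CPM in C1q and 26.1 to 32.0 CPM in saline. The defining granule gene Epx was at 0 CPM in every library of both groups except saline replicate 2, at 0.405 CPM. Classical monocyte markers summed to 2933 to 3287 CPM in C1q and 1162 to 2381 CPM in saline, and without Chil3, which makes up most of that sum, to 504 to 634 CPM in C1q and 351 to 415 CPM in saline. Fn1, the fibronectin gene, held most of what remained: without it as well, the sums overlapped, at 145 to 190.3 CPM in C1q and 115 to 160.4 CPM in saline. Alveolar macrophage markers without Chil3 overlapped, at 480.3 to 683 CPM in C1q and 414 to 725 CPM in saline. Interstitial macrophage markers overlapped too, at 327 to 452 CPM in C1q and 269 to 454 CPM in saline. The part of these lists in the Adam8 level was not tested.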

How the data were processed

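Whole-number counts per gene symbol, deposited by the authors with no normalization, were used for all 6 libraries. The submitters' processing notes list Bowtie2 2.4.2 and cutadapt 2.1.0 with GRCm38. The counting step, annotation, strand handling and any molecular identifiers were not given in the sources used here. Samples were grouped by treatment label and numbered by order of deposition, which pairs nothing. By chi-square per degree of freedom, none of the 15 pairs were alike within counting noise. The values ran from 4.61 for C1q replicates 2 and 3 to 14.9 for saline replicates 2 and 3. Pairs of a saline and a C1q library lay between, at 5.35 to 13.3.

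The filter filterByExpr kept 13473 of 26890 genes. Counts were scaled by TMM over these and tested with edgeR 4.0.16 (glmQLFit and glmQLFTest, two-sided, on treatment alone), with Benjamini-Hochberg adjustment over all of them and a threshold of 0.05. SEs derive from the F statistic, and 95% intervals are unadjusted. The code was tested on simulated data, where it recovered 43.6% of 2-fold and 87.4% of 4-fold changes. Of the calls in those data, 7.89% were unchanged genes. Alternatives were other scalings, no or a stricter filter, DESeq2 1.42.0, limma-voom (limma 3.58.1) and leaving out each library.

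The 10 genes and all lists were chosen with earlier results of these data known. From each list the text names up to 3 tested genes of largest change at a mean of at least 5 CPM, and any called; other genes were chosen after their values were seen. Positions are from GENCODE M21. A few listed or overlapping genes are not reported here.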

Additional observations from a re-analysis of the deposited data

How the results depend on the processing

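No paired analysis was possible because the libraries carry no number shared between the groups. Under 13 alternatives, 8 of the 10 genes kept the sign of their log2 fold change throughout. The exceptions were Adamts10, whose range with 1 library left out was -0.25 to 0.040 (0.040 without saline replicate 3), and Adamts15, whose range was -0.017 to 0.21 (-0.017 without C1q replicate 1). With no filter on low counts, 4 of the genes passed the edgeR threshold, at log2 fold changes of 0.86 for Adamts2, 1.22 for Adamts4, 1.505 for Adamts12 and 0.91 for Adam8, and Adamts13 missed it (adjusted p = 0.0508). That fit called 158 genes higher and 215 lower of 26890, against 4 higher and 0 lower of 13473 with the filter. DESeq2 called 31 higher and 1 lower, among them Adamts4 at 1.18. Adamts4 ran from 0.96 to 1.47 with 1 library left out and passed without saline replicate 3. Over those 6 fits the number of genes called ran from 0 to 9 higher and from 0 to 1 lower. The cause of these differences was not tested. Scaling moved the median log2 fold change of all genes by less than 0.1. Adamts12 and Adamts13 rest on 7 to 53 counts per library, which limits their precision.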
